A study of Mus musculus with 21 samples.

Results

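The genes described here are Myc, 3 genes of ribosomal RNA transcription, 31 genes whose products assemble or process ribosomal subunits in the nucleolus, and 5 genes of polyamine and nucleotide synthesis, 40 in all, chosen by name, with earlier results of these data known. Of the 40 members, 37 had a row in the deposited table of 11736 genes, and Wdr43, Bop1 and Gart were not analysed here. Expression was given as RPKM, the reads of a gene scaled to its length in kilobases and to the size of the library. To be tested a gene had to reach an RPKM of 1 in 3 or more libraries, which 36 members did, while Wdr74 stayed between 0.392 and 1.13 RPKM and did not.

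Ribosomes are built in the nucleolus, where RNA polymerase I transcribes a long ribosomal RNA precursor. Small nucleolar ribonucleoproteins (snoRNPs) modify this precursor, and the small subunit processome and a chain of large subunit assembly factors cut and fold it together with the ribosomal proteins. The transcription factor MYC is known to raise the transcription of most genes of this pathway, and of Odc1, Srm and Cad, often through the E-box sequence near their start sites. In natural killer (NK) cells, which are cytotoxic lymphocytes of the innate immune system, IL-15 is known to drive growth.

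The study deleted Ikzf1, Ikzf3 or both in NK cells of mice. The genes encode Ikaros and Aiolos, zinc finger transcription factors of lymphocytes. The 4 groups analysed were DKO (both genes deleted, 3 libraries, in columns S5 to S7), Ikzf1 KO (4 libraries, S12 to S15), Ikzf3 KO (4 libraries, S1 to S4) and Cre only controls (4 libraries, S16 to S19), so that every group carried Cre. The labels used here do not name the Cre driver. NK cells of all groups were sorted from spleen and grown with recombinant human IL-15 at 50 ng/ml, and 6 samples sorted without culture were not analysed here. The labels speak of biological replicates without tying columns to animals, so the p-values below measure the spread between these libraries.

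Reads recovered from the RPKM steps amounted to 8.48 to 20.9 megareads a library, and a tested member had between 62 and 34452 reads in a library. The targeted genes followed the labels: Ikzf1 was at 30.3 ± 7.12 RPKM in DKO, 19.1 ± 0.662 in Ikzf1 KO, 81.4 ± 6.34 in Ikzf3 KO and 61.9 ± 5.22 in Cre only libraries (SD, n = 3, 4, 4 and 4). Ikzf3 was at 21.5 ± 1.96 in DKO, 48.3 ± 1.52 in Ikzf1 KO, 17.8 ± 2.37 in Ikzf3 KO and 41.8 ± 3.68 in Cre only libraries. The 9 NK markers in the table, of which Gzmb had the highest RPKM in every library, summed to 1744 to 4365 RPKM in DKO, 10356 to 11292 in Ikzf1 KO, 2988 to 12404 in Ikzf3 KO and 9228 to 13092 in Cre only libraries. Among them Prf1, the gene of perforin, was at 10.0, 30.2 and 66.4 RPKM in DKO, against 390 to 1095 RPKM in Cre only libraries, while Ncr1 was above 80 RPKM in all 15 libraries. Prf1, Gzmb and Cd244a were below every Cre only library in all 3 DKO libraries, and Klrk1 and Eomes were above. In Ncr1, Klrb1c, Tbx21 and Klrd1 the DKO and Cre only libraries overlapped. Libraries of the same genotype did not always agree, which touched the members more than other genes and is described first.

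The 4 Ikzf3 KO libraries disagreed on these genes. S3 and S4 were below every Cre only library in 35 of the 36 tested members, where 39.3% (S3) and 40.8% (S4) of all 10032 genes tested were, and S1 and S2 were below in 0 members, where 31.2% and 29.7% of all genes were. Both S3 and S4 were above in 1 member, where 37.2% and 38.6% of all genes were. S1 was above every Cre only library in 18 members and S2 in 15, against 24.97% and 27.9% of all genes. The median member stood at 123% of the Cre only mean in S1 and 116% in S2, against 21.2% in S3 and 22.1% in S4. The exception was Npm1, the member with the highest level, which was above every Cre only library in all 4 Ikzf3 KO libraries.

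**Figure D1:**
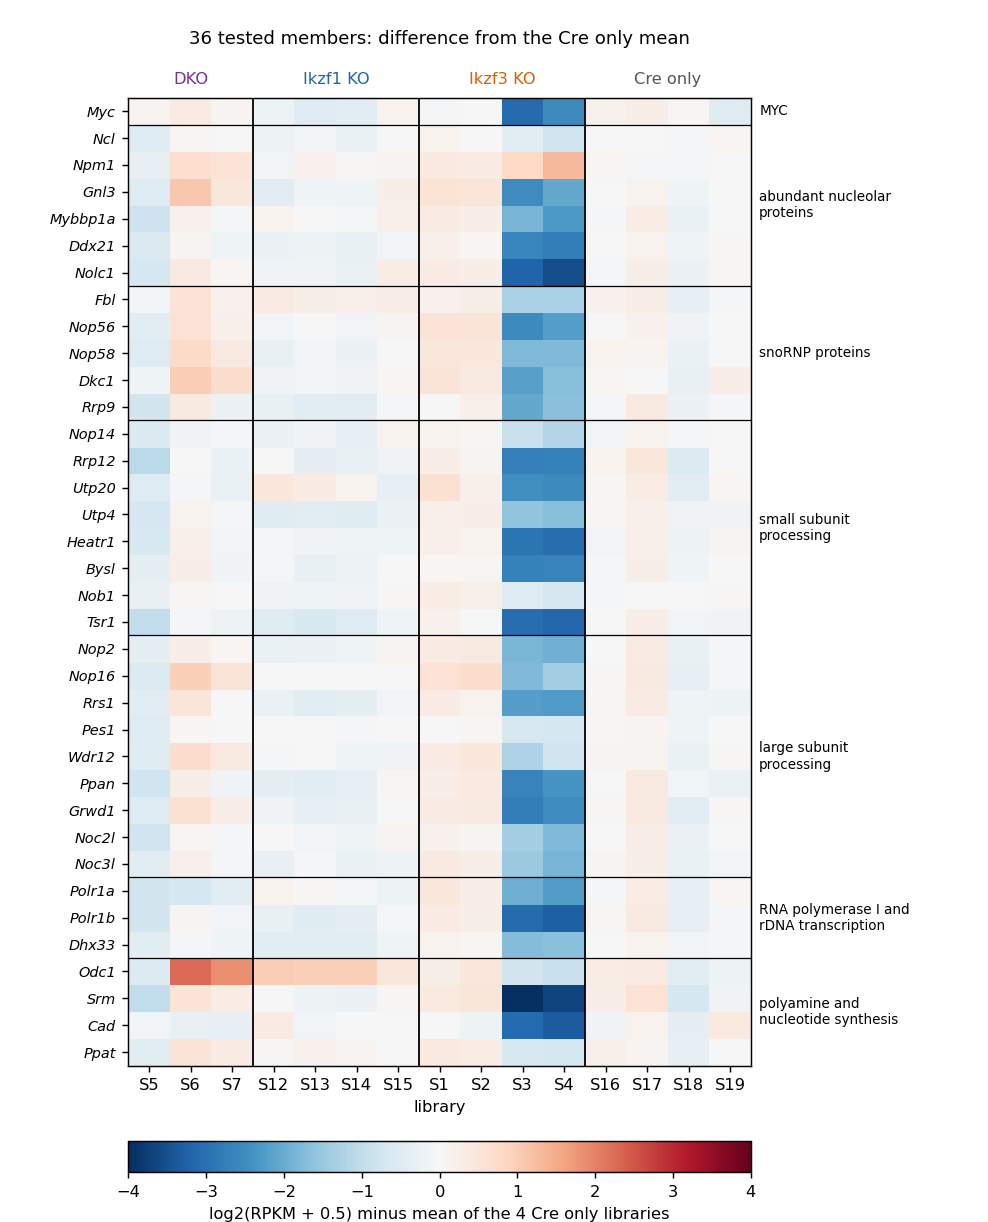
Difference of each of the 36 tested members (rows, by role) from the mean of the 4 Cre only libraries, as log2(RPKM + 0.5), in each of the 15 libraries (columns, by genotype). S3 and S4 of the Ikzf3 KO group are blue in 35 members, S5 of the DKO group is pale blue in most, and Odc1 is red in S6 and S7.

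Myc (chr15:61985391-61990374, mm10, forward strand) showed the split. Its RPKM in the Ikzf3 KO libraries was 60.5 in S1, 62.9 in S2, 7.11 in S3 and 10.5 in S4, against 72.3, 75.2, 65.7 and 45.3 in S16 to S19, the Cre only libraries. In the other deletions it was 69.2, 79.8 and 68.7 in DKO libraries and 55.2, 44.4, 47.7 and 70.2 in Ikzf1 KO libraries. S1 and S2 lay within the Cre only range, and S3 and S4 lay far under every other library.

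Among the members that act in ribosomal RNA transcription, Polr1b, which encodes the second largest subunit of RNA polymerase I, was at 16.2, 15.04, 1.07 and 0.880 RPKM in Ikzf3 KO libraries S1 to S4, against 13.5, 16.4, 10.0 and 12.1 RPKM in the Cre only libraries. The highest Ikzf3 KO library was 18.4 times the lowest, where the same ratio among Cre only libraries was 1.64. Polr1a, the gene of the largest subunit, was at 9.16, 7.98, 1.31 and 0.979 RPKM in S1 to S4, against 5.10 to 8.19 RPKM in Cre only libraries. Dhx33, an RNA helicase gene of this step, was at 7.48, 7.19, 1.68 and 1.77 RPKM in S1 to S4, against 6.31 to 7.59 RPKM in Cre only libraries. In all 3 genes S3 and S4 were the lowest of the 15 libraries.

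The abundant nucleolar proteins differed among themselves. Nolc1, whose product Nopp140 carries snoRNPs through the nucleolus, was at 38.9, 37.1, 2.89 and 2.17 RPKM in S1 to S4, against 29.6, 36.2, 26.1 and 31.5 RPKM in Cre only libraries. Ncl, the gene of nucleolin, differed far less, at 154, 139, 105 and 79.8 RPKM in S1 to S4, against 140, 139, 133 and 148 RPKM in Cre only libraries. Npm1 (chr11:33152287-33163206, mm10, reverse strand), the gene of the nucleolar chaperone nucleophosmin, ran the other way, at 505, 490, 668 and 958 RPKM in S1 to S4, against 406, 375, 374 and 389 RPKM in Cre only libraries. Npm1 has processed pseudogenes elsewhere in the genome, and how reads shared with them were counted is not given in the sources used here. Gnl3, Mybbp1a and Ddx21, the other members of this group, were at 12.7 to 26.5% of the Cre only mean in S3 and at 14.0 to 20.1% in S4.

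All 5 snoRNP genes were low in S3 and S4. Dkc1, the gene of the pseudouridine synthase dyskerin, was at 40.4, 35.7, 5.76 and 8.20 RPKM in S1 to S4, against 29.4, 27.4, 22.4 and 33.6 RPKM in Cre only libraries. Over the 5 genes, which include Fbl (the methyltransferase fibrillarin), Nop56 and Nop58 of the box C/D particle, S3 held 15.8 to 39.0% of the Cre only mean and S4 20.3 to 39.1%. Their median was 137% in S1 and 127% in S2.

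Among the 8 tested genes of small subunit processing, the median was 12.1% of the Cre only mean in S3 and 12.2% in S4. Tsr1, Heatr1, Utp20, Rrp12 and Bysl were all at or under 12.9% in both libraries. Nob1, the gene of the endonuclease that makes the final cut of the small subunit RNA, differed least in this group, at 23.3, 22.0, 13.2 and 11.7 RPKM in S1 to S4, against 18.5 to 19.5 RPKM in the 4 Cre only libraries. S3 and S4 were below the other 13 libraries in Nob1 too.

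The 9 tested genes of large subunit processing had a median of 27.9% of the Cre only mean in S3 and 25.0% in S4. Noc2l, the most abundant of them by RPKM, was at 69.3, 66.2, 23.3 and 17.4 RPKM in S1 to S4, against 59.7, 74.1, 52.0 and 60.1 RPKM in Cre only libraries. Pes1, whose product pescadillo forms a complex with those of Bop1 and Wdr12, kept 63.4% in S3 and 60.9% in S4, while Ppan and Grwd1 kept 12.1 to 15.6%.

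Of the metabolic members, Srm (chr4:148591503-148594993, mm10, forward strand), the gene of spermidine synthase, had the widest range. It was at 79.1, 84.5, 3.23 and 4.33 RPKM in S1 to S4, against 72.3, 90.6, 37.0 and 55.2 RPKM in Cre only libraries, a ratio of 26.2 between the highest and lowest Ikzf3 KO library and of 2.45 between the highest and lowest Cre only library. Cad, whose protein carries out the first steps of pyrimidine synthesis, was at 29.0, 24.6, 2.90 and 2.42 RPKM in S1 to S4, against 26.0, 31.3, 21.7 and 37.7 RPKM in Cre only libraries. Ppat, the gene of the first enzyme of purine synthesis, kept 64.5% of the Cre only mean in S3 and 60.5% in S4.

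**Figure D2:**
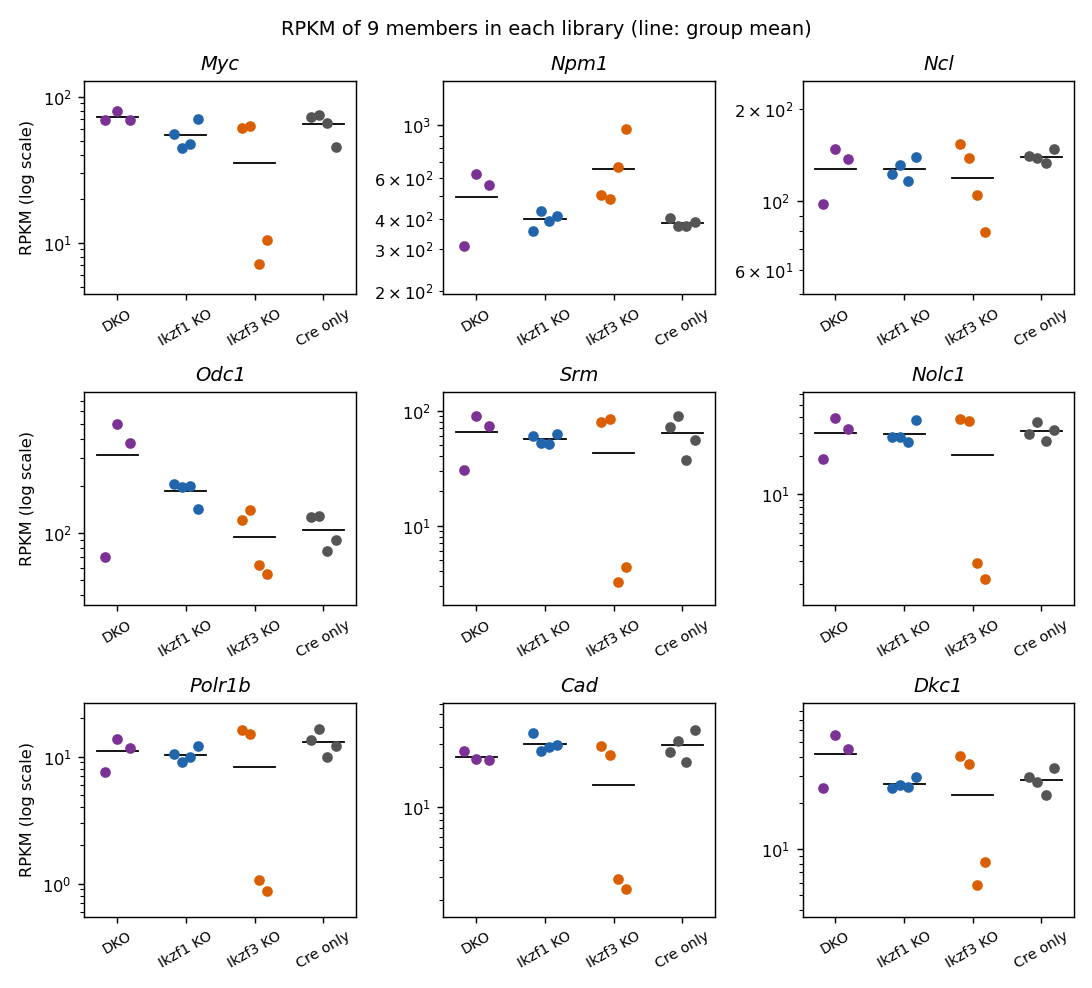
RPKM (log axes) of 9 members in each library, by genotype, with a line at the group mean. In 7 of the 9 panels 2 Ikzf3 KO points, S3 and S4, lie under all other libraries of the panel, and in the Npm1 panel they lie above them.

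Measured between pairs of libraries of 1 genotype, the median absolute log2 difference over the members was 0.09 for S1 and S2 and 0.23 for S3 and S4, but 2.31 to 2.38 for the 4 pairs that take a library from each. Over all genes tested the same 4 pairs differed by 0.49 to 0.57. Pairs of Ikzf1 KO libraries differed by 0.07 to 0.23 over the members and pairs of Cre only libraries by 0.12 to 0.45. S3 and S4 were both below S1 and S2 in 35 members and both above in 1, Npm1, where 36.6% of all genes went each way. Over the members S3 and S4 were within the range of replicates of the other groups. Over all genes they differed by 0.29, more than any pair of Ikzf1 KO (0.09 to 0.18) or Cre only libraries (0.12 to 0.24). Pairs of DKO libraries differed by 0.27 to 0.89 over the members and by 0.17 to 0.34 over all genes.

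**Figure D3:**
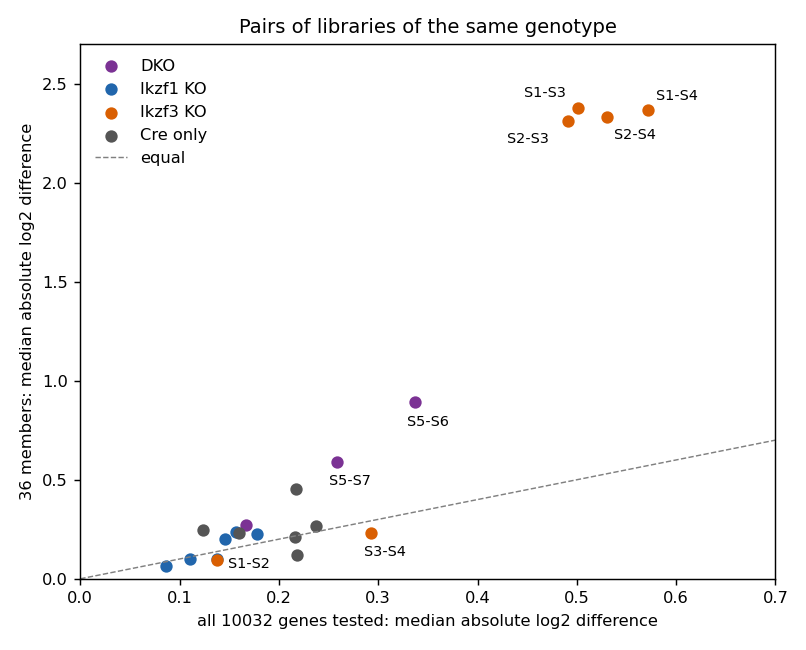
Median absolute log2 difference between libraries of the same genotype, over all 10032 genes tested (horizontal axis) and over the 36 members (vertical axis), 1 point a pair. The 4 pairs that set S1 or S2 against S3 or S4 stand at 2.31 to 2.38 for the members, above all other pairs, of which the DKO pair of S5 and S6 is the highest at 0.89.

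Spread was tested without dividing the group, by comparing the absolute deviations from the group mean of the Ikzf3 KO libraries with those of the other 3 groups. With limma and adjustment over all genes, 34 of 36 members were called wider in Ikzf3 KO, where 44.5% of all genes were, and Npm1 and Odc1 were not. This test called too many genes in simulated data of equal spread. A test of variance ratios added after the data were seen called 30 of 36 members wider, against 24.6% of all genes, with Ncl, Npm1, Pes1, Wdr12, Odc1 and Ppat not called. The median member had an SD on the log2(RPKM + 0.5) scale of 0.46 in DKO, 0.14 in Ikzf1 KO, 1.39 in Ikzf3 KO and 0.23 in Cre only libraries, and the median of all genes 0.21, 0.12, 0.36 and 0.17 in the same groups. Without S3 and S4, and likewise without S1 and S2, 0 members were called wider by limma. The pairs were told apart by the values of these same members, so this describes the split and does not test it.

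Compared as a group, 0 of 36 members passed the test in Ikzf3 KO against Cre only libraries (limma, Benjamini-Hochberg adjusted p below 0.05), where 14.2% of all genes did, and 11 members had an unadjusted p under 0.05. The median log2 change was -0.87, with 35 members below 0. Myc had a log2 change of -1.42 ± 0.55 (SE, adjusted p = 0.089, limma), Cad of -1.65 ± 0.60 (adjusted p = 0.077) and Srm of -1.71 ± 0.85 (adjusted p = 0.173). Npm1 came nearest to the threshold, with a log2 change of 0.71 ± 0.23 (adjusted p = 0.051), and it was the 1 member whose Ikzf3 KO and Cre only libraries did not overlap with Ikzf3 KO higher, where 7.68% of all genes had this pattern. It passed after rescaling by median ratios (14.1% of all genes) and after quantile normalization (13.9%). In 0 members did the groups part with Ikzf3 KO lower, where 10.5% of all genes did.

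The answer depended on which Ikzf3 KO libraries were used. No label sets S3 and S4 apart, and the pairs were told apart by the values of these members. The fits without a pair therefore describe the split and are no separate test of it. Without S1 and S2, 34 members fell and Npm1 rose against Cre only, where 27.7% of all genes fell and 25.8% rose, with a median log2 change of -2.01 over the members. Without S3 and S4, 0 members were called, where 9.95% of all genes were, and the median was 0.29. Leaving out S1 alone gave 21 members that fell, and leaving out S2 alone 15, with Npm1 higher in each case, where 29.9% and 23.9% of all genes were called. In a bulk sample, fewer cells that express a gene and less of its RNA in each cell cannot be told apart.

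S3 and S4 also stood apart in other measures, whose part in the difference was not tested. The DNA replication gene Mcm2 was at 40.2, 37.9, 8.25 and 4.93 RPKM in S1 to S4, against 26.8 to 47.6 RPKM in Cre only libraries, and the summed RPKM of all 7 proliferation markers was 481, 488, 285 and 268 in S1 to S4, against 298 to 549 in Cre only libraries. In this sum S3 and S4 were below every Cre only library, as they were in 3 of the 7 markers taken singly. Gzmb, the gene of the granule protease granzyme B, was at 9104, 10586, 1841 and 1795 RPKM in S1 to S4, against 7955 to 11121 RPKM in Cre only libraries. The other NK markers did not all go this way. Klrb1c (270 RPKM), Klrk1 (113) and Klrd1 (474) in S4 and Eomes (61.1) in S3 were above every Cre only library. Below every Cre only library were Ncr1, Klrb1c and Klrd1 in S3, Prf1 in S4, and Tbx21 and Cd244a in each of S1 to S4. In S3 and S4 the rest were within the Cre only range. Of the markers of other cell types, the 7 T cell genes in the table summed to 220 to 286 RPKM in Ikzf3 KO and 156 to 358 in Cre only libraries, with Cd8a at most at 0.761 in any library. The 1 B cell gene (Cd79b) was at 0 in S3 and S4 and reached at most 0.522 in Cre only libraries, and of the 2 myeloid genes Lyz2 was at 0 in S3, S4 and all Cre only libraries and Itgam, which NK cells also express, was at 6.52 in S3 and 3.81 in S4, against 3.85 to 7.88 in Cre only libraries.

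Other genes of the pathway were read from lists of 11 to 55 tested genes, chosen with results of these data known. Of all genes tested, 39.3% in S3 and 40.8% in S4 were below every Cre only library, and 37.2% and 38.6% were above. In S3 and S4, 30 of 37 further small subunit processome genes were below every Cre only library, as were 38 and 35 of 41 large subunit processing genes. For 13 snoRNP genes the counts were 10 and 8, for 12 RNA exosome genes 9 and 9, and for 43 further genes of the MYC target collections 32 and 27. The median log2 difference from the Cre only mean in these lists lay between -0.51 and -1.11 in S3 and S4, nearer to 0 than the -2.01 and -1.97 of the members. Ribosomal protein genes went the other way: all 55 were above every Cre only library in S3 and in S4, with medians of 0.67 and 1.37, and their RPKM summed to 63759 in S3 and 100270 in S4, against 34332 to 41168 in Cre only libraries. Like Npm1, these genes have processed pseudogenes. Of further genes of RNA polymerase I and its initiation factors, 8 of 18 were below and 6 above in S3, and 8 below and 9 above in S4. These counts were not far from the shares of all genes.

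**Figure D4:**
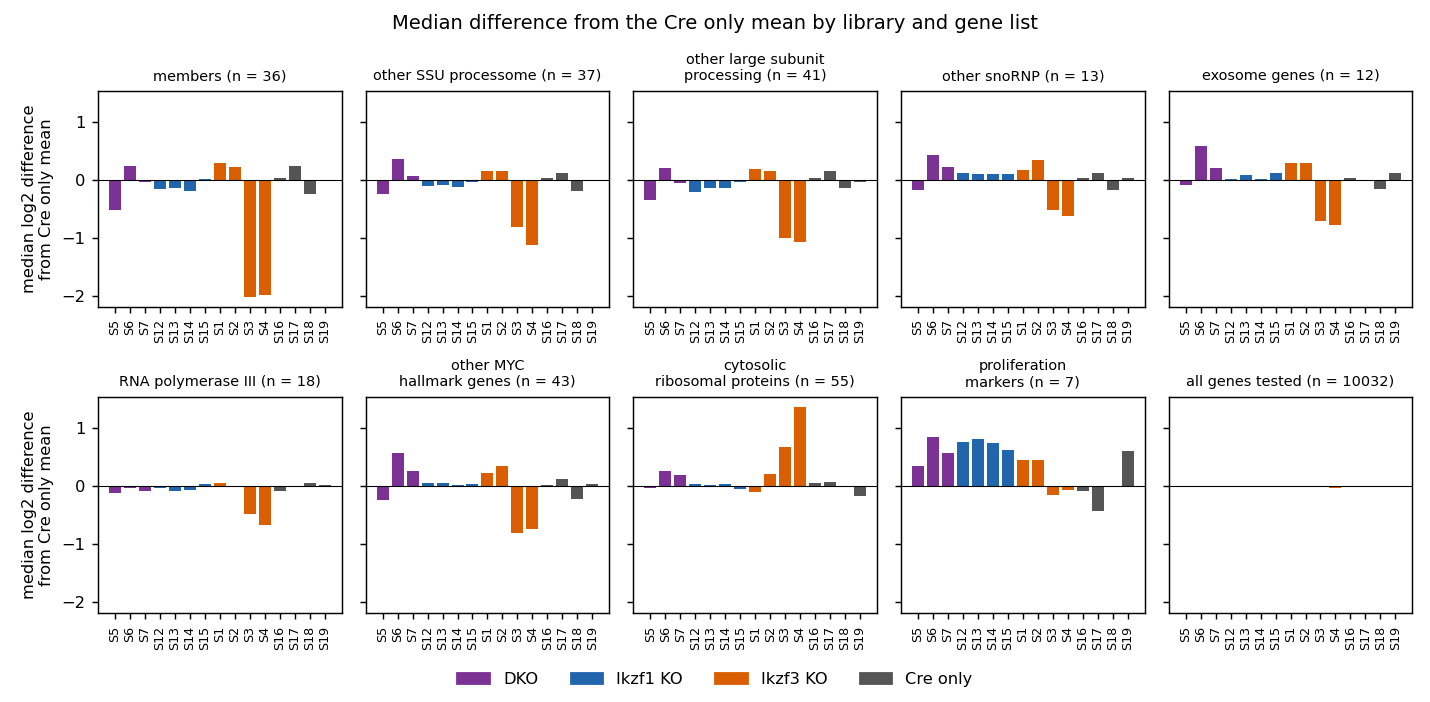
Median log2 difference from the Cre only mean in each library (bars, coloured by genotype) for the members, 8 other gene lists and all genes tested. Members and processing factors are lowest in S3 and S4, ribosomal proteins are highest there at 0.67 and 1.37, and the median of all genes stays near 0 in every library.

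Few genes of these lists passed the test between the groups as wholes, where 14.2% of all genes did. Against Cre only, Polr1c, a subunit shared by RNA polymerases I and III, rose in Ikzf3 KO libraries, at 36.9, 41.5, 40.2 and 49.2 RPKM in S1 to S4, against 28.6 to 29.6 RPKM in Cre only libraries (log2 change 0.51 ± 0.11, adjusted p = 0.0071, limma). It was 1 of 3 genes of its list of 18 that rose, with 0 that fell. Znhit3, a box C/D snoRNP assembly factor (log2 change 0.88 ± 0.18), and the exosome subunit gene Exosc8 (0.72 ± 0.18) rose, 1 gene in each of their lists, and Ddx54, a nucleolar helicase gene (-0.85 ± 0.25), was the 1 large subunit gene of 41 that fell. Of 55 ribosomal protein genes, Rps25 (0.67 ± 0.20) and Rps2 (0.61 ± 0.19) rose.

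Of 14 genes of the MYC network 2 were called, near the 14.2% of all genes in this comparison. Mxd3 rose in Ikzf3 KO libraries (log2 change 0.93 ± 0.22, adjusted p = 0.016, limma) and Mnt fell (-0.69 ± 0.20, adjusted p = 0.038). Both encode partners of MAX that oppose MYC at E-boxes. In a list of 12 genes of the 5S RNP and of MDM2 and p53, 1 rose and 1 fell, also near the share of all genes. Tsc22d1 rose (log2 change 1.36 ± 0.28, adjusted p = 0.0076, limma). Against Cre only it also rose in Ikzf1 KO (1.70 ± 0.28, adjusted p = 0.0024, limma) and in DKO (2.59 ± 0.31, adjusted p = 4.6e-05). Trp53, the gene of p53, fell in Ikzf3 KO libraries (-0.98 ± 0.27, adjusted p = 0.027). It was at 45.9, 50.8, 23.1 and 17.1 RPKM in S1 to S4, against 54.2 to 65.9 RPKM in Cre only libraries. Tsc22d1 was not followed through the other settings. Of the other 11 calls given here and in the polyamine lists for this comparison, 7 were lost when S3 and S4 were left out, 9 when S16 and S17 were, and 9 when the fit held only these 2 groups.

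Promoter sequences of RefSeq (GRCm38.p6, 250 bases before to 50 after the start) were matched by symbol for 31 of 37 members. The E-box CACGTG, which reads the same on both strands, was in 8 of the 31 (25.8%), and in 8.09% of 27025 genes with a promoter. TGGGAA, the core recognised by Ikaros family proteins, was on either strand in 10 of 31 members (32.3%) and in 28.3% of all genes. The 27025 genes were not limited to those tested here, and the members, chosen by name, include known MYC targets. The shares are therefore a description and no test. For 6 of the 8 genes the E-box lay far enough inside the window to show 10 bases on each side, and these are printed. Low levels in S3 and S4 do not set these members apart, since nearly all tested members were low there. Capitals mark the E-box, and sequences run 5′ to 3′ on the strand of the gene. The windows are chr6:125131813-125131838 (Nop2, forward), chr7:45830740-45830765 (Grwd1, reverse), chr8:106893645-106893670 (Utp4, forward), chr11:3963967-3963992 (Pes1, forward), chr11:71004452-71004477 (Dhx33, reverse) and chr11:74898094-74898119 (Tsr1, forward).
Nop2: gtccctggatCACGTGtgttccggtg
Grwd1: gccggagtcgCACGTGtgaaaccgga
Utp4: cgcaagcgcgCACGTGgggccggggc
Pes1: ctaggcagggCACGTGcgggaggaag
Dhx33: agcacgcctgCACGTGgcgagaaagg
Tsr1: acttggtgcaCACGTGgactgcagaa
The E-box begins 60 bases before the start in Nop2 and 35 before it in Dhx33, and at base 3, 16, 25 and 35 of the transcript in Pes1, Utp4, Tsr1 and Grwd1. Against the Cre only mean, these genes ranged in S3 from 9.72% in Tsr1 to 63.4% in Pes1. A match is a run of letters in the window and does not show binding.

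In DKO cells the members did not separate from the controls as a group. In DKO against Cre only libraries, 0 of 36 members passed the test, where 18.7% of all genes did, and 1 member had an unadjusted p under 0.05. The median log2 change of the members was -0.10. The libraries again differed among themselves: S5 was below every Cre only library in 32 members (33.4% of all genes), S6 in 2 (36.7%) and S7 in 5 (34.99%), while S6 was above in 17 (36.9%), S7 in 9 (30.6%) and S5 in 0 (30.8%). S5 was the lowest DKO library in 34 members and S6 the highest in 33, and the median member was at 67.8% of the Cre only mean in S5, 118% in S6 and 98.2% in S7. Gzmb was at 753 RPKM in S5 and at 3134 and 3432 in S6 and S7, and its part in the difference was not tested. Of the 7 T cell genes in the table, Cd3e, Cd3d, Trac and Trbc2 were above every Cre only library in all 3 DKO libraries. Cd3g was not above in S5, nor Cd4 in S7. Cd8a, at 0.036 to 0.055 RPKM in DKO, was within the Cre only range. The part of the T cell genes in the difference was not tested either.

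Myc itself was at 72.5 ± 6.24 RPKM in DKO and 64.6 ± 13.5 RPKM in Cre only libraries (SD, n = 3 and 4; log2 change 0.19 ± 0.59, adjusted p = 0.862, limma), with overlapping values. Polr1a was the 1 member whose groups did not overlap, lower in DKO at 3.71, 3.81 and 4.69 RPKM, against 6.26, 8.19, 5.10 and 6.85 RPKM in Cre only libraries. Of all genes, 18.96% parted this way, and 0 members parted with DKO higher (16.1% of all genes). Its log2 change was -0.62 ± 0.52 (adjusted p = 0.450, limma). The test shares its estimate of spread with the Ikzf3 KO libraries, and when only DKO and Cre only libraries were fitted Polr1a passed (adjusted p = 0.032), as did 22.4% of all genes.

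Odc1 (chr12:17544794-17551505, mm10, forward strand), whose product ornithine decarboxylase begins polyamine synthesis, had the largest positive log2 change of the members in DKO. It was at 70.3, 496 and 376 RPKM in DKO libraries S5 to S7 and 205, 197, 199 and 142 RPKM in Ikzf1 KO libraries, against 126, 128, 76.4 and 89.6 RPKM in Cre only libraries. S6 and S7 were the highest of all libraries and S5 was below every Cre only library. The log2 change was 1.20 ± 0.53 in DKO (adjusted p = 0.129, limma), and leaving out 1 library in turn gave 0.67 to 2.07. The highest value came without S5, with an adjusted p of 0.0014 (limma). That p follows from leaving out the DKO library lowest in Odc1 and is no separate evidence of a change. Odc1 was also the 1 member called with array weights, where 30.5% of all genes were.

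Single genes of other lists passed in DKO against Cre only, where 18.7% of all genes did. Of 20 further genes of purine and pyrimidine synthesis, 8 rose and 1 fell, among them Paics, a purine synthesis enzyme, at 131, 185 and 162 RPKM in DKO libraries, against 97.1, 83.5, 82.9 and 98.1 RPKM in Cre only libraries (log2 change 0.80 ± 0.16, adjusted p = 0.0032, limma), and Prps2, which makes the ribose phosphate precursor (0.56 ± 0.12). Of 14 MYC network genes, 1 rose and 4 fell. Mycn, the gene of N-MYC, was at 2.06, 2.58 and 5.35 RPKM in DKO libraries, against 12.7, 18.3, 21.3 and 12.0 RPKM in Cre only libraries (log2 change -2.17 ± 0.46, adjusted p = 0.0045), and Mlxip (-0.90 ± 0.18) and Mnt (-0.96 ± 0.22) also fell. The call of Mnt was lost without S18 and S19. None of the 37 small subunit, 41 large subunit, 13 snoRNP and 12 exosome genes passed in limma. An unadjusted p under 0.05 was found for 1, 1, 2 and 2 of them. Low Mycn was not limited to DKO. It was below every Cre only library in the Ikzf1 KO libraries (6.03 to 7.58 RPKM) and in S3 and S4 (5.57 and 6.43 RPKM). In S1 and S2 it was at 23.7 and 23.9 RPKM. Against Cre only Mycn was called in neither single deletion.

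In Ikzf1 KO cells the libraries agreed closely and the members stayed near the controls. Against Cre only, 0 of 36 members passed, where 6.32% of all genes did, and 0 had an unadjusted p under 0.05 in limma. The median log2 change was -0.13, with 28 members below 0 and 8 above. Library by library, 14, 13, 14 and 3 members were below every Cre only library in S12 to S15 (28.5, 28.8, 27.7 and 25.9% of all genes), and 3, 3, 1 and 5 were above (26.95, 26.1, 25.8 and 23.9%). Odc1 was the 1 member whose groups did not overlap with Ikzf1 KO higher (11.6% of all genes), with a log2 change of 0.84 ± 0.49 (adjusted p = 0.382). Utp4 (-0.41 ± 0.38), Tsr1 (-0.45 ± 0.62) and Dhx33 (-0.37 ± 0.36) were the 3 whose groups did not overlap with Ikzf1 KO lower (13.2% of all genes).

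The standard errors of these 4 genes carry the spread of all 15 libraries, with S1 to S4 and the DKO libraries among them. On the log2(RPKM + 0.5) scale the SD of Odc1 was 1.52 in DKO and 0.67 in Ikzf3 KO libraries. Utp4, Tsr1 and Dhx33 had their largest SD in Ikzf3 KO libraries. Without S3 and S4, or without S1 and S2, Dhx33 alone of the 4 passed. When only Ikzf1 KO and Cre only libraries were fitted, all 4 passed, with adjusted p of 0.015 for Odc1, 0.020 for Utp4, 0.0339 for Tsr1 and 0.026 for Dhx33 (limma). In that fit 20.03% of all genes passed. With array weights, which give libraries far from their group less influence, 3 of them passed (Odc1, Utp4 and Dhx33), where 37.3% of all genes did. Utp4, a processome gene, was at 15.1, 15.6, 15.2 and 17.95 RPKM in Ikzf1 KO libraries, against 22.4, 24.9, 19.3 and 19.5 RPKM in Cre only libraries. Tsr1, a late small subunit assembly factor, was at 13.6, 12.7, 13.4 and 17.3 RPKM in Ikzf1 KO libraries, against 19.3, 23.7, 17.9 and 17.5 RPKM in Cre only libraries. The nearest libraries of the 2 groups were S15 and a Cre only library in both genes, and S15 was the highest Ikzf1 KO library in 24 of 36 members. Myc had a log2 change of -0.24 ± 0.55 (adjusted p = 0.895). Among list genes, Mxd3 rose (1.15 ± 0.22, adjusted p = 0.0069) and Impdh1, an enzyme of guanine nucleotide synthesis, fell (-0.92 ± 0.15, adjusted p = 0.0017). The call of Mxd3 was lost without S16 and S17.

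Smox and Sat1 were the called genes of the polyamine list. Smox, the gene of spermine oxidase, which breaks spermine down, was at 1.10, 0.894 and 1.43 RPKM in DKO libraries, 1.25, 1.23, 0.757 and 0.856 RPKM in Ikzf1 KO libraries and 10.3, 9.85, 20.7 and 8.15 RPKM in Ikzf3 KO libraries, against 2.56, 3.40, 5.66 and 2.10 RPKM in Cre only libraries. It rose in Ikzf3 KO (log2 change 1.68 ± 0.29, adjusted p = 0.0022, limma) and fell in Ikzf1 KO (-1.30 ± 0.29, adjusted p = 0.014) and DKO (-1.19 ± 0.31, adjusted p = 0.016), and all 4 Ikzf3 KO libraries were above every other library. Sat1, the gene of the acetyltransferase that also degrades polyamines, was at 25.4, 25.0, 229 and 176 RPKM in S1 to S4, against 17.2, 14.9, 29.0 and 16.3 RPKM in Cre only libraries (log2 change 1.91 ± 0.58, adjusted p = 0.042). High Sat1 in S3 and S4 stood beside low Srm in the same libraries, while Sat1 in S1 and S2 was within the Cre only range. Of 11 further polyamine genes, 2 rose and 0 fell in Ikzf3 KO, 0 rose and 1 fell in Ikzf1 KO, and 0 rose and 1 fell in DKO, where 14.2, 6.32 and 18.7% of all genes were called in either direction. The call of Smox in Ikzf1 KO was lost without S14 or without S16 and S17, and that in DKO without S6 or without S16 and S17. The call of Sat1 in Ikzf3 KO was lost with array weights, when only the 2 groups were fitted, and without S3 and S4. It was also lost when any single library other than S1, S2 or S5 was left out.

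**Figure D5:**
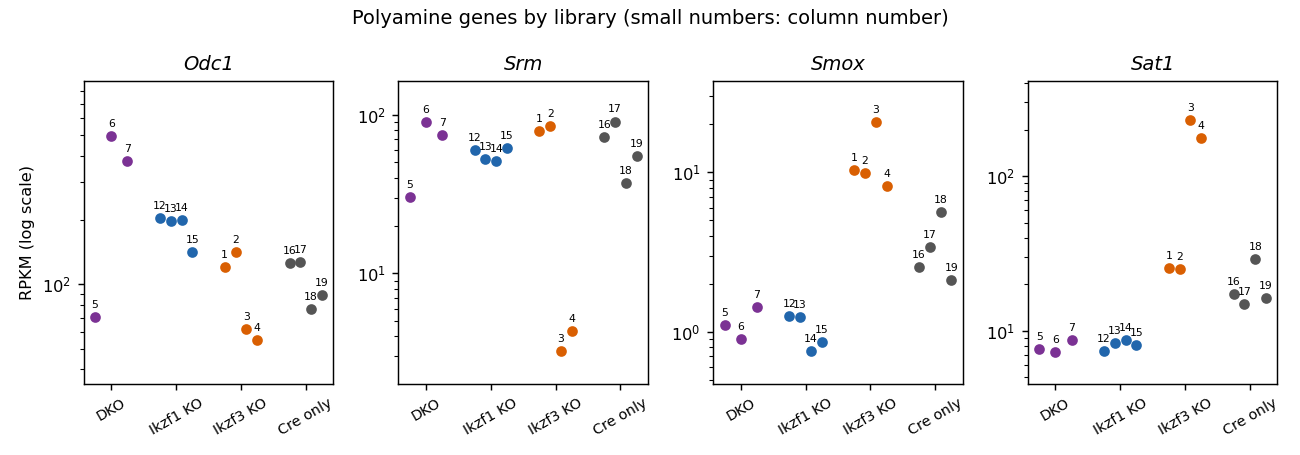
RPKM (log axes) of 2 genes of polyamine synthesis (Odc1, Srm) and 2 of its breakdown (Smox, Sat1) in each library, with the column number beside each point. Srm is lowest and Sat1 highest in S3 and S4, Smox is higher in all 4 Ikzf3 KO libraries than elsewhere, and Odc1 is highest in S6 and S7 of the DKO group.

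Between the double and the single deletions, 0 of 36 members passed in DKO against Ikzf1 KO libraries, where 7.48% of all genes did, and 0 had an unadjusted p under 0.05. Polr1a again did not overlap, lower in DKO at 3.71, 3.81 and 4.69 RPKM, against 7.17, 6.77, 6.13 and 5.62 RPKM in Ikzf1 KO libraries (17.3% of all genes, and 14.5% with DKO higher; log2 change -0.60 ± 0.52, adjusted p = 0.564, limma). When only these 2 groups were fitted its adjusted p was 0.014, and 17.7% of all genes passed. Odc1 had a log2 change of 0.36 ± 0.53 (adjusted p = 0.753) and its groups overlapped through S5.

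In DKO against Ikzf3 KO libraries 0 members passed, where 20.1% of all genes did, with 6 at an unadjusted p under 0.05 and a median log2 change of 0.80. Myc (log2 change 1.61 ± 0.59) and Odc1 (1.43 ± 0.53) came nearest, each with an adjusted p of 0.067 (limma). Myc was the 1 member whose groups did not overlap, with DKO higher (12.4% of all genes, and 11.9% with DKO lower): the lowest DKO library was at 68.7 RPKM and the highest Ikzf3 KO library at 62.9 RPKM. Without S3 and S4 the median log2 change of the members was -0.34 and 1 member, Polr1a, was called, lower in DKO, where 20.1% of all genes were called. Without S1 and S2 all 36 were called, 35 of them higher in DKO, where 55.3% of all genes were called. The fits without a pair again rest on a split seen in the members themselves. Smox (-2.88 ± 0.31), Sat1 (-3.11 ± 0.63) and Mycn (-1.81 ± 0.46) fell in DKO against Ikzf3 KO, and Sat1 and Mycn did not pass when only these 2 groups were fitted, nor Mycn without S5 or without S6. Mycn was lower in S3 and S4 than in S1 and S2. The comparisons of DKO with Ikzf3 KO and with Cre only share the DKO libraries.

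The departure of DKO from the sum of both single deletions on the log2 scale was called in 0 of 36 members, where 6.55% of all genes were, with 1 member at an unadjusted p under 0.05 in limma. Its median over the members was 0.96, but it was -0.19 without S3 and S4, with 1 member called (10.3% of all genes), and 2.04 without S1 and S2, with 33 called (40.8%). Here too the pairs left out were told apart by the members' own values. Myc had a departure of 1.86 ± 0.81 (adjusted p = 0.205). Of the 14 MYC network genes, Mxd3 departed, below the sum in DKO (-1.30 ± 0.33, adjusted p = 0.032, limma), and of the 11 polyamine genes Smox did (-1.57 ± 0.42, adjusted p = 0.039). Both calls were lost when any single one of S6, S7, S12, S13, S14, S16 or S17 was left out. That of Smox was also lost without S3, S5, S15 or S19, with a pseudocount of 0.1 and with a filter at an RPKM of 5, and that of Mxd3 without S18.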

How the data were processed

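Polyadenylated RNA of cultured splenic NK cells was sequenced as stranded libraries with single-end reads of 75 bases, per the labels' protocols. STAR, featureCounts, limma (version 3.34.9) and the mm10 build are listed, without settings, per the submitters' processing notes. The authors deposited RPKM per gene and no counts. The headers show genotype only, and the columns were taken as cultured samples because group sizes match those alone. Depth was recovered from the RPKM steps and GENCODE release M21 exon lengths (96.2% of 11732 genes were whole reads within 0.02 read in all libraries), and member coordinates come from that release.

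RPKM was transformed to log2(RPKM + 0.5), so fold changes of low genes are understated. limma 3.58.1 (R 4.3.3; trend, robust, 11 residual degrees of freedom, 2-sided) fitted 1 mean per group over all 15 libraries for the 10032 genes that reached an RPKM of 1 in 3 or more libraries, and p-values were adjusted over all of them. Spread was tested on absolute deviations with limma and by a variance ratio test, both also run on simulated data. Tables and figures were made in Python 3.11.15 with matplotlib 3.10.9, scipy 1.17.1, pandas 2.3.3 and numpy 2.4.6.

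Members and lists were chosen with earlier results of these data known. Values in every library were given for Myc, the 3 members with the highest mean RPKM, the 4 with the widest range in Ikzf3 KO, and the top member of each role by mean RPKM. Of other lists, up to 3 called genes a list and comparison were named. Polr1a, Dhx33, Utp4, Tsr1 and the members printed with percentages were added after their values were seen. Alternatives were the pseudocount, the filter, the scaling, array weights, fits of only the groups compared, and leaving out libraries.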

Additional observations from a re-analysis of the deposited data

Results flagged for a closer look

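In 3 of 108 member and group combinations with 4 libraries, 1 library lay far from the other 3 on the log2 scale by Dixon's ratio, where chance alone gives about 1 in 20. Odc1 was at 142 RPKM in the Ikzf1 KO library S15, against 197 to 205 in the other Ikzf1 KO libraries. Nob1 was at 19.9 RPKM in the same library, against 16.9 to 17.3 in the others. Wdr12 was at 2.53 RPKM in the Cre only library S18, against 3.24 to 3.39 in the other Cre only libraries.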

How the results depend on the processing

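No paired analysis was possible because the deposited columns carry no replicate numbers. The pseudocounts and the filters on low values moved no count of members called by over 1.5 times. In Ikzf1 KO against Cre only, 3 members were called with array weights, 4 when only the groups compared were fitted, and 1 (Dhx33) without S3 and S4 or without S1 and S2. In Ikzf3 KO against Cre only, 1 (Npm1) was called after rescaling by median ratios or quantile normalization and 35 without S1 and S2. In DKO against Cre only, 1 was called with array weights (Odc1), and 1 (Polr1a) when only these groups were fitted, without S3 and S4, or without S1 and S2. In DKO against Ikzf1 KO, 1 (Polr1a) was called in the last 3 of these settings. In DKO against Ikzf3 KO, 1 (Polr1a) was called without S3 and S4 and 36 without S1 and S2, and for the departure from the sum 1 and 33. Members called wider in Ikzf3 KO were 0 without either pair. In comparisons with Ikzf3 KO, counts without a pair describe a split seen in the members themselves and do not test it. Leaving out 1 library in turn gave 0 to 22 members called in Ikzf3 KO against Cre only, 0 to 1 in DKO against Cre only, 0 to 1 in DKO against Ikzf1 KO and 0 to 13 in DKO against Ikzf3 KO, the high ends without S1 or S5.

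The median log2 change of the members turned to 0.082 (array weights) and 0.29 (without S3 and S4) in Ikzf3 KO against Cre only, to 0.042 (array weights) and 0.06 (without S5) in DKO against Cre only, to -0.13 (without S6) and -0.02 (without S7) in DKO against Ikzf1 KO, to -0.0022 (array weights) and -0.34 (without S3 and S4) in DKO against Ikzf3 KO, and to -0.19 (without S3 and S4) for the departure. Leaving out 1 library gave -0.26 to 0.06 in DKO against Cre only and -0.13 to 0.30 in DKO against Ikzf1 KO. Srm turned to 0.068 (array weights) and 0.43 (without S3 and S4) in Ikzf3 KO against Cre only, Myc to -0.027 (without S18 and S19) in DKO against Cre only, and Odc1 to -0.17 (without S6, in a range of -0.17 to 1.23) in DKO against Ikzf1 KO. The cause was not tested. The departure could not be fitted on only the groups compared, since it needs all 4.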
